A study of Homo sapiens with 18 samples.

Results

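The messengers of 10 focal adhesion proteins and binding partners of ASAP1 were followed in 3 triple-negative breast cancer (TNBC) cell lines after silencing of ASAP1. The genes were SRC, PTK2, PTK2B, CTTN, CD2AP, CRK, CRKL, SH3KBP1, RAB11FIP3 and NEDD9. The rule that chose them uses names only, though the choice was made with earlier results of these data known. They took up 12 of the 21111 rows of the expression table, which covers 19289 gene symbols, since SH3KBP1 and NEDD9 each had 2 rows. A row counts the reads of 1 pair of detector oligos that are ligated on an mRNA (TempO-Seq), and is named here by its gene symbol and number. The human lines BT549, Hs578T and SUM149PT were transfected with 50 nM of a pooled siRNA against ASAP1 (siASAP1) or a control siRNA (siCtrl), with no other agent named, and lysed after 72 h. By the study's account all 3 lines carry an amplification of ASAP1 with high expression. Each of the 6 groups held 3 libraries, which the study's methods call biological triplicates, and each line was 1 culture model of a tumor type. The control siRNA was, by those methods, itself a pool of siRNAs against kinase genes, a class that holds SRC, PTK2 and PTK2B. The methods add that this pool does not significantly affect the expression of any single kinase gene, a statement that was not tested here. Libraries held 4.63 to 12.5 M reads, with a median of 6.63 M, and 5 of the 6 SUM149PT libraries were shallow, at 4.67 to 4.74 M in siASAP1 and 4.89 and 4.63 M in siCtrl replicates 1 and 3, while siCtrl replicate 2 held 7.74 M.

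ASAP1 is a GTPase-activating protein for Arf proteins, the small GTPases that direct membrane traffic and actin remodelling, and it docks at focal adhesions through its SH3 domain and proline-rich stretch. At a focal adhesion, engaged integrins recruit the focal adhesion kinase PTK2, which binds SRC. The kinase complex phosphorylates scaffolds of the CAS family such as NEDD9, and the adaptors CRK and CRKL bind the phosphorylated scaffold and pass the signal on to RAC1. CD2AP and SH3KBP1 (CIN85) are SH3 adaptors that link receptors and the ubiquitin ligase CBL to endocytosis, CTTN (cortactin) stabilizes branched actin in invadopodia and the cell cortex, and RAB11FIP3 tethers recycling endosomes by binding RAB11 and ARF proteins.

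Promoter sequence is shown for NEDD9, RAB11FIP3 and SH3KBP1, the members on whose values the results turn. Each line below gives the 100 bases before a start site in RefSeq (build GRCh38.p14), 5′ to 3′ on the gene's own strand, with capitals marking matches to a searched motif. 6 of the 10 members matched the RefSeq promoter table, with 10 start sites in all, and which start site the detector oligos follow is not given in the sources used here.
RAB11FIP3 start site 1, chr16:425549-425648, + strand: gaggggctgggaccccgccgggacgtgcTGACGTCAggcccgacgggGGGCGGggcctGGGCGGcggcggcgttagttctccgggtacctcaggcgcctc
RAB11FIP3 start site 2, chr16:474824-474923, + strand: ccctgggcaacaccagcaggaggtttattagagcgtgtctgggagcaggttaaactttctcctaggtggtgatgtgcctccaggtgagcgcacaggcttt
NEDD9 start site 1, chr6:11382349-11382448, − strand: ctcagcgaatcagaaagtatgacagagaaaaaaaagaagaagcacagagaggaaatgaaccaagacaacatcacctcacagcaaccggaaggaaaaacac
NEDD9 start site 2, chr6:11232669-11232768, − strand: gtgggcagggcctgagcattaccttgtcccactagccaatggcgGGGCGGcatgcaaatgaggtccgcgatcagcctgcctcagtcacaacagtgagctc
SH3KBP1 start site 1, chrX:19833152-19833251, − strand: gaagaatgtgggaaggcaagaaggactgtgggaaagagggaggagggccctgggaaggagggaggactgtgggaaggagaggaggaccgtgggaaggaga
SH3KBP1 start site 2, chrX:19799774-19799873, − strand: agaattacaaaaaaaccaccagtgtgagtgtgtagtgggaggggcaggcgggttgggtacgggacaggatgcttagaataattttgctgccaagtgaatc
SH3KBP1 start site 3, chrX:19671000-19671099, − strand: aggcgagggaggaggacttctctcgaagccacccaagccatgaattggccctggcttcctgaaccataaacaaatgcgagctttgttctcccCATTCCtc

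4 motifs were searched on both strands: the cyclic AMP response element TGACGTCA, the AP-1 site TGANTCA, the TEAD site GGAATG and the GC box GGGCGG. The first RAB11FIP3 stretch held 1 cyclic AMP response element, a motif present in 1.16% of 34943 stretches of the same length, and 2 GC boxes, a motif present in 31.2%, while the second held none of the motifs. The second NEDD9 stretch held a GC box, and the third SH3KBP1 stretch held a TEAD site on the opposite strand, a motif found in 4.68% of stretches. None of the 7 stretches held the AP-1 letters, which were in 2.76% of all stretches. GC content was 78% and 55% for the RAB11FIP3 stretches, 42% and 61% for the NEDD9 stretches and 60%, 48% and 54% for those of SH3KBP1, beside a median of 60% over all stretches. In the GENCODE 29 annotation of GRCh38, the NEDD9 gene lies at chr6:11183298-11382348, RAB11FIP3 at chr16:425619-523011 and SH3KBP1 at chrX:19533975-19887601. SH3KBP1 is on the − strand, so its annotated 5′ end is at 19887601, and none of its 3 stretches lies there.

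Marker genes set the lines apart. In siCtrl libraries EPCAM, an epithelial adhesion molecule, stood at a normalized count of 29532 ± 8322 in SUM149PT, 19.0 ± 7.29 in Hs578T and 1.72 ± 0.69 in BT549 (mean ± SD, n = 3 each), whereas the mesenchymal filament gene VIM (VIM_18185) stood at 2622 ± 545, 151322 ± 59073 and 32100 ± 4506. The mesenchymal cadherin gene CDH2 did not follow VIM, at 1733 ± 335 in SUM149PT, 4010 ± 1328 in Hs578T and 325 ± 118 in BT549. A normalized count is the read count divided by the library's size factor. PGR stayed at or below 3.38 in every siCtrl library, ERBB2 at 14.6 to 110.3, and 1 of the ESR1 rows reached 24.3 to 54.7 in SUM149PT. The pan-leukocyte marker PTPRC and the endothelial marker VWF were at 0 in every siCtrl library, though 1 PECAM1 row reached 77.6 ± 25.9 in SUM149PT.

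ASAP1 itself checked the labels. Its normalized count in siASAP1 replicates 1, 2 and 3 was 367.1, 729.7 and 782.9 in BT549, against 1106.8, 966.5 and 944.2 in siCtrl. In Hs578T it was 781.9, 825.1 and 1261.5 against 1641.3, 1414.0 and 2697.5, and in SUM149PT 281.8, 467.9 and 184.0 against 1086.9, 188.6 and 1314.0. The groups did not overlap in BT549 and Hs578T, but the SUM149PT siCtrl library of replicate 2, the deeper one, sat within the siASAP1 range. Over the 3 lines the Log2 FC of ASAP1, on the log2(normalized count + 1) scale used throughout, was −0.96 (SE 0.31, adjusted p = 0.13, limma with Benjamini-Hochberg adjustment over 10475 rows), and without that library −1.20 (SE 0.25, adjusted p = 0.019 by limma). Since it goes against its label, calls and folds that turn on it are given below with and without it for members read in every library. For the gene lists, counts are given with and without it, and folds only for some genes.

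**Figure D1:**
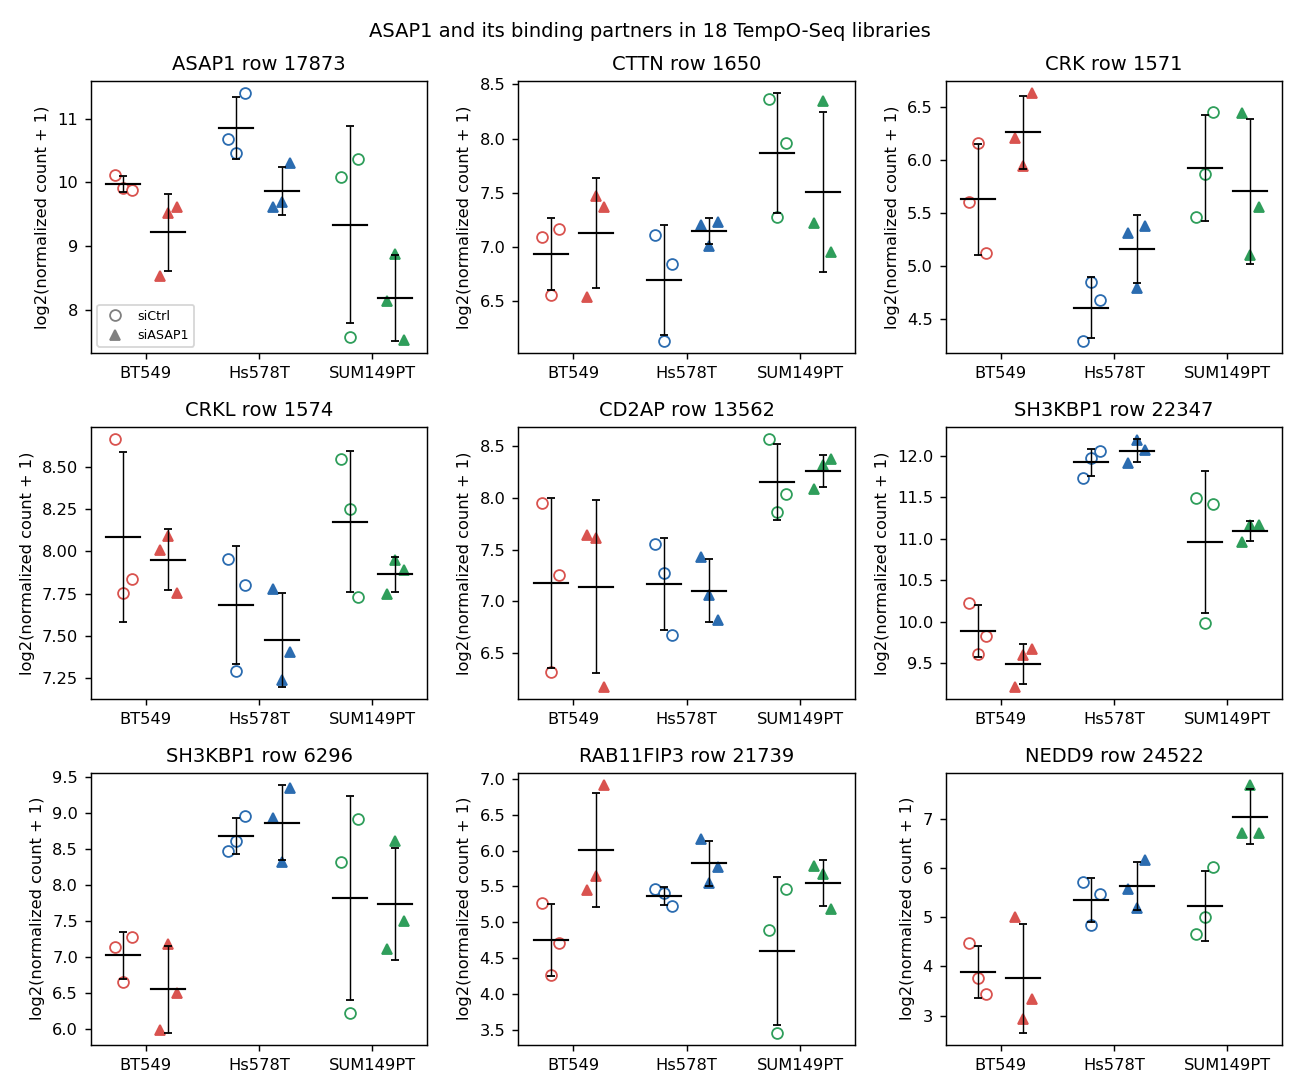
Level of ASAP1 and of the 8 member rows above the filter in 18 libraries, as log2(normalized count + 1) on the vertical axis, by cell line on the horizontal axis. Open circles are siCtrl and filled triangles siASAP1 libraries, bars give the mean ± SD of 3 libraries, and vertical axes differ between panels. Both SH3KBP1 rows are higher in every Hs578T library than in every BT549 library, while SUM149PT overlaps BT549 in both, NEDD9_24522 is separated by treatment in SUM149PT, and 1 SUM149PT siCtrl library is low for ASAP1, SH3KBP1 and RAB11FIP3.

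The kinases at the head of the pathway were hardly seen or not seen. PTK2, the focal adhesion kinase, and PTK2B (PYK2), its close relative, were listed at 0 in all 18 libraries. With 125.1 M reads in all, a count of 0 allows up to 3 reads, or 0.0240 per M, a limit that covers counting error only. SRC, the non-receptor tyrosine kinase that partners with PTK2, had 41 reads in total, spread over 7 of 18 libraries with at most 10 in 1 library. In BT549 SRC had 3, 0 and 8 reads in siASAP1 replicates 1 to 3 and 0, 0 and 6 in siCtrl. In Hs578T it had 0, 4 and 10 reads against 0, 0 and 0, and in SUM149PT 3, 0 and 0 against 0, 7 and 0. A row without reads can also mean that its detector oligos did not work: 3241 rows, 15.4% of the table, had no read in any library. These values therefore give no level or comparison for PTK2 or PTK2B. SRC entered a test only when rows were not filtered by level, and then gave no call in any comparison (adjusted p = 0.68 over the 3 lines by limma). No fold over the lines is given, since Hs578T siCtrl was at 0.

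The other members were counted in every library. A row was tested where its mean normalized count over the libraries compared was at least 10, which 8 of the 12 member rows, from 7 of the 10 genes, met in most comparisons and 9 met in SUM149PT. By mean normalized count over all libraries SH3KBP1_22347 (2380) lay above 97.4% of all rows, SH3KBP1_6296 (275.7) above 84.2%, CRKL (240.9) above 83.1% and CD2AP (199.7) above 81.2%. CTTN (159.8), CRK (50.6), NEDD9_24522 (49.9) and RAB11FIP3 (44.7) followed, and NEDD9_27576 (9.68) had reads in 9 of 18 libraries. Detector oligos differ in efficiency, so these positions describe rows and do not order the genes' messengers. In bulk lysates, fewer cells and less RNA per cell cannot be told apart.

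NEDD9, the CAS family scaffold, was the only member called after silencing in a line by the study's limits, an unadjusted p under 0.05 with an absolute Log2 FC above 1. In SUM149PT the normalized count of NEDD9_24522 was 104.5, 205.1 and 103.8 in siASAP1 replicates 1 to 3 and 24.3, 31.0 and 63.9 in siCtrl. All 3 siASAP1 libraries lay above all 3 siCtrl libraries. The Log2 FC was 1.81 (SE 0.60, 95% interval 0.42 to 3.20), a 3.51-fold difference, with an adjusted p = 0.40 by limma over 10078 rows. An exact two-sided permutation test gave p = 0.10, the smallest that 3 against 3 allows. The call was lost without SUM149PT siASAP1 replicate 2 (Log2 FC 1.49, adjusted p = 0.45) and without SUM149PT siCtrl replicate 1 (1.53, adjusted p = 0.97), and it remained without the low-ASAP1 siCtrl replicate 2 (1.70, adjusted p = 0.15, all by limma). Over 16 alternative settings the Log2 FC ranged from 1.49 to 2.21 and 12 gave the call. The 4 without it were the fits without those 2 libraries, calls on the adjusted p and a block on the replicate number.

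The second NEDD9 row and the other lines did not add to this. In SUM149PT NEDD9_27576 read 72.8, 1.3 and 39.4 in siASAP1 and 0, 24.6 and 4.8 in siCtrl, with overlapping groups and a Log2 FC of 1.84 that rests on a library at 0 and whose 95% interval ran from −2.20 to 5.88. In BT549 NEDD9_24522 read 31.1, 6.6 and 9.1 against 21.2, 12.6 and 9.8 (Log2 FC −0.13, 95% interval −2.10 to 1.83), and in Hs578T 46.5, 35.3 and 70.4 against 51.5, 27.7 and 43.3 (0.29, −0.77 to 1.36). The difference between lines was itself tested, and the interaction of line and treatment gave an adjusted p = 0.90 by limma, so the SUM149PT value was not shown to differ from those of the other lines. Marker genes also moved in SUM149PT, with no common direction within a list. The epithelial sum was 30500 after siASAP1 and 43501 in siCtrl, mostly EPCAM (20698 and 29532) and KRT8 (8830 and 12813), while CDH1 went from 98.7 in siCtrl to 234.0. The mesenchymal sum was 10749 after siASAP1 and 6673 in siCtrl, with FN1_27231 at 4387 and 853.7 but VIM_18185 at 929 and 2622. Their part in the NEDD9 value was not tested.

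RAB11FIP3, the RAB11 effector, had a higher mean after silencing in all 3 lines without passing a limit. In BT549 its normalized count was 42.7, 49.1 and 119.5 in siASAP1 replicates 1 to 3 and 37.4, 18.2 and 25.3 in siCtrl. In Hs578T it was 70.3, 45.7 and 53.3 against 43.0, 41.6 and 36.5. The groups did not overlap in either line, by a narrow margin in both. In SUM149PT the counts of 54.2, 50.0 and 35.5 overlapped those of 28.6, 10.0 and 43.2 in siCtrl.

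The Log2 FC of RAB11FIP3 was 1.25 in BT549 (SE 0.61, adjusted p = 0.65), 0.45 in Hs578T (SE 0.41, adjusted p = 0.92) and 0.94 in SUM149PT (SE 0.74, adjusted p = 0.69), all by limma. The SUM149PT value dropped to 0.37 without the low-ASAP1 siCtrl replicate 2 (adjusted p = 0.74 by limma). Over the 3 lines it was 0.88 (SE 0.33, 95% interval 0.20 to 1.57), a 1.85-fold difference with an adjusted p = 0.18 by limma, and without that library it was 0.72 (SE 0.31, adjusted p = 0.25). The Log2 FC over the 3 lines ran from 0.72 to 1.01 over 25 alternative settings, with adjusted p between 0.11 and 0.30. In BT549 the row passed the study's limits without siASAP1 replicate 1 (Log2 FC 1.53, adjusted p = 0.15) and without siCtrl replicate 1 (1.51, adjusted p = 0.75, both by limma).

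Neither CRK nor CRKL, the adaptors that read CAS scaffolds, changed by these limits. CRK stood at 72.9, 60.4 and 97.6 in BT549 siASAP1 against 47.4, 70.4 and 33.7, at 38.5, 26.6 and 40.5 in Hs578T against 18.6, 27.7 and 24.6, and at 86.0, 33.3 and 46.0 in SUM149PT against 42.9, 57.4 and 86.3. The groups overlapped in each line. Over the 3 lines its Log2 FC was 0.32 (95% interval −0.29 to 0.93). CRKL varied little, between 150.3 and 404.3 across all libraries, with a Log2 FC of −0.22 (95% interval −0.61 to 0.18).

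CTTN, CD2AP and SH3KBP1, which join actin and endocytosis to the ASAP1 scaffold, also stayed within their spread. The CTTN level ran from 69.4 to 328.9 over all libraries, and its Log2 FC over the 3 lines was 0.09 (95% interval −0.44 to 0.63). That of CD2AP was 0.00 (−0.53 to 0.54), with levels from 71.2 to 379.0. For SH3KBP1 the Log2 FC was −0.04 (−0.45 to 0.36) in SH3KBP1_22347 and −0.12 (−0.79 to 0.55) in SH3KBP1_6296. The intervals over the 3 lines of CRK, CRKL, CTTN, CD2AP and both SH3KBP1 rows lie within 1 log2 unit of 0, so an average change of 2-fold across the lines is outside them. Within a single line the intervals were wider, for example −1.18 to 0.39 for SH3KBP1_22347 in BT549 and −1.84 to 1.68 for SH3KBP1_6296 in SUM149PT. Without SUM149PT siCtrl replicate 2 the Log2 FC of SH3KBP1_6296 moved from −0.08 to −0.88 in SUM149PT and from −0.12 to −0.35 over the 3 lines, and that of SH3KBP1_22347 from 0.13 to −0.36 and from −0.04 to −0.20. CTTN moved from −0.36 to −0.65 in SUM149PT, CRK, CRKL and CD2AP by less than 0.15 in either fit, and none of these values passed a limit.

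Counted together, 0 of 8 member rows passed the study's limits in BT549, beside 6.97% of all rows tested, 0 of 8 in Hs578T beside 2.78%, and 1 of 9 in SUM149PT beside 9.56%. At an adjusted p under 0.05 no row of the whole table passed in any of the lines (0% in each by limma), although 754, 502 and 1025 rows had an unadjusted p under 0.05. Without BT549 siASAP1 replicate 1 the count at an adjusted p under 0.05 was 544 in BT549. Without SUM149PT siCtrl replicate 2 the count at that limit was 107 in SUM149PT, and neither count held a member row. Over the 3 lines 0 of 8 members passed at an adjusted p under 0.05, beside 1.74% of all rows, and 1 of 8 had an unadjusted p under 0.05, beside 15.8%. In the interaction 0 of 8 passed beside 0.00955%. Groups that did not overlap were found for 1 row of 8 tested in BT549, for 1 of 8 in the line Hs578T and for 1 of 9 in the line SUM149PT, against 13.9%, 12.1% and 17.3% of all rows tested. All of these member counts were near the background, within 1 row of the share of the whole table.

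**Figure D2:**
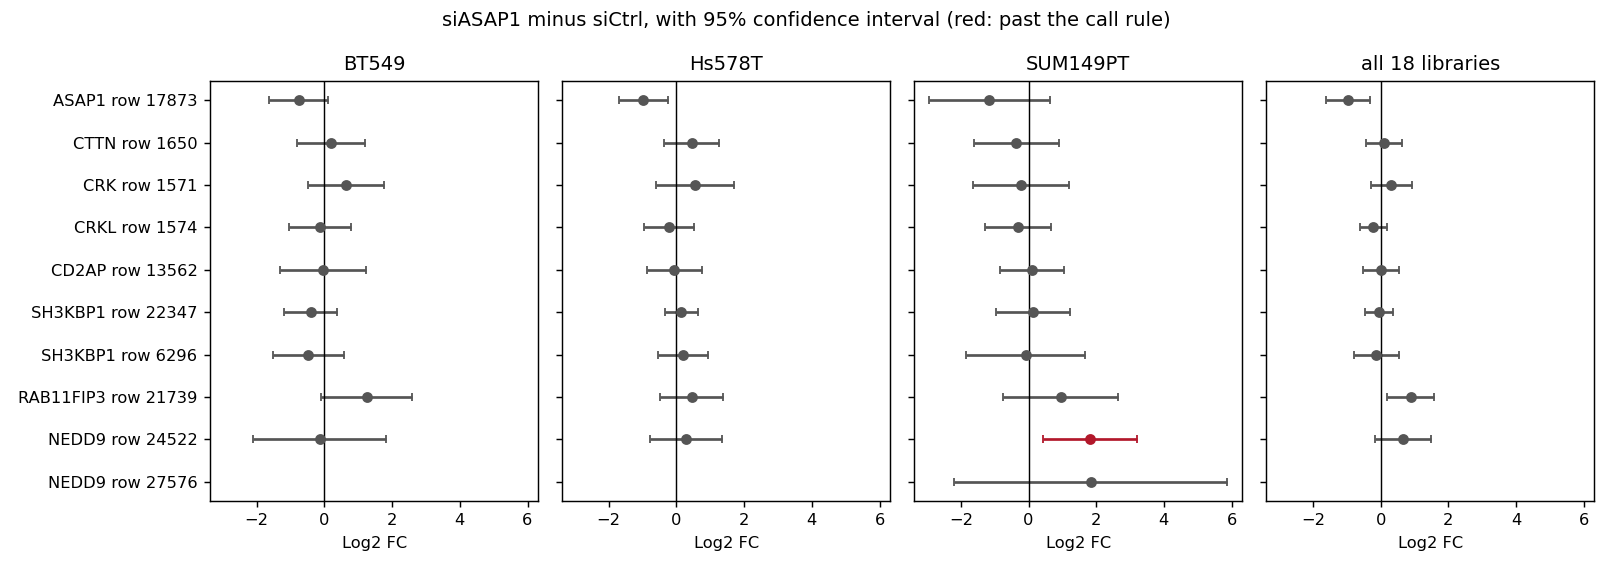
Log2 FC of siASAP1 over siCtrl (horizontal axis, log2 units) for ASAP1 and the member rows, in each line (3 against 3 libraries) and over all 18 libraries, with 95% confidence intervals. NEDD9_24522 in SUM149PT (1.81, in red) alone passes the study's limits, the RAB11FIP3 point lies to the right of 0 in every panel, and NEDD9_27576 passed the filter on level in SUM149PT only.

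SH3KBP1 was the member called between cell lines. In siCtrl replicates 1 to 3 the normalized count of SH3KBP1_22347 was 3415.8, 4013.5 and 4264.0 in Hs578T, 2874.7, 1007.6 and 2752.6 in SUM149PT and 1199.1, 779.1 and 909.8 in BT549. Every Hs578T library lay above every other library of the siCtrl arm, and SUM149PT replicate 2 fell into the BT549 range. Hs578T exceeded BT549 by a Log2 FC of 2.03 (SE 0.42, 95% interval 1.09 to 2.97), a 4.09-fold difference with an adjusted p = 0.0093 by limma over 10255 rows. The call was kept in all 19 alternative settings, with a Log2 FC of 1.84 to 2.57 and an adjusted p between 6.9e-05 and 0.048. SUM149PT lay between, 1.08 above BT549 (adjusted p = 0.12 by limma) and 0.96 below Hs578T (Log2 FC −0.96, adjusted p = 0.14), and neither difference passed the adjusted limit. These values were, without SUM149PT siCtrl replicate 2, 1.57 (adjusted p = 0.0020) and −0.46 (adjusted p = 0.20, both by limma).

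The siASAP1 libraries gave the same order, since SH3KBP1_22347 stood at 3869.7, 4699.0 and 4309.0 in Hs578T, 1985.8, 2290.9 and 2290.5 in SUM149PT and 592.9, 772.2 and 812.1 in BT549. In those libraries the 3 ranges were apart and all 3 pairs of lines passed, with a Log2 FC of 2.57 between Hs578T and BT549 (adjusted p = 6.9e-05), 1.60 between SUM149PT and BT549 (adjusted p = 0.00085) and −0.97 between SUM149PT and Hs578T (adjusted p = 0.013, all by limma). These comparisons use other libraries than the siCtrl ones and were chosen after seeing the data.

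The second SH3KBP1 row followed the first at a lower count. SH3KBP1_6296 stood at 353.6, 389.2 and 493.6 in Hs578T siCtrl, 317.5, 73.8 and 482.7 in SUM149PT and 139.8, 99.98 and 154.3 in BT549. Hs578T was above BT549 in every library, by a Log2 FC of 1.65 (SE 0.62, adjusted p = 0.12 by limma, or 0.0043 without SUM149PT siCtrl replicate 2, which shares the fit's estimate of spread). Its Log2 FC for SUM149PT over Hs578T was −0.86 with that library and −0.06 without it, and over BT549 0.79 and 1.59. The ratio of the rows' normalized counts ran from 5.38 to 14.8 over the 18 libraries, with a median of 8.85 and group means from 7.42 in BT549 siCtrl to 11.0 in SUM149PT siASAP1. The replicates of a group covered much of that range, for example 5.88 to 14.4 in SUM149PT siASAP1. Over the 18 libraries the rows whose log2 values were most like those of SH3KBP1_22347 were HS3ST3B1_21433 (Pearson r = 0.98), a heparan sulfate sulfotransferase gene, and JDP2_18999 (r = 0.96), a bZIP repressor gene. The libraries share 3 lines, so this likeness is mostly a pattern over 3 points.

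The remaining members gave no call between lines in the siCtrl libraries, though NEDD9 did in the siASAP1 ones. NEDD9_24522 stood at 51.5, 27.7 and 43.3 in Hs578T, 24.3, 31.0 and 63.9 in SUM149PT and 21.2, 12.6 and 9.8 in BT549, with a Log2 FC of 1.45 for Hs578T over BT549 (adjusted p = 0.16) and 1.34 for SUM149PT over BT549 (adjusted p = 0.17, both by limma). In siASAP1 libraries, whose SUM149PT values were given above, NEDD9_24522 was 3.28 log2 units higher in SUM149PT than in BT549 (adjusted p = 0.0048), 1.88 higher in Hs578T than in BT549 (adjusted p = 0.073) and 1.40 higher in SUM149PT than in Hs578T (adjusted p = 0.14, all by limma). The second SH3KBP1 row, SH3KBP1_6296, was also called there, 2.31 higher in Hs578T than in BT549 (adjusted p = 0.0079 by limma). Calls in siASAP1 libraries thus numbered 2, 2 and 1 of 9 member rows for Hs578T over BT549, SUM149PT over BT549 and SUM149PT over Hs578T, beside 19.9%, 22.3% and 28.4% of all rows. CTTN, at 328.9, 154.0 and 247.8 in SUM149PT siCtrl, exceeded its 137.5, 69.4 and 114.3 in Hs578T and, by a small margin, the 136.0, 93.1 and 142.4 in BT549. The Log2 FC of CTTN was 1.17 for SUM149PT over Hs578T (adjusted p = 0.099) and 0.93 over BT549 (adjusted p = 0.20). CRK was lowest in Hs578T siCtrl, where no library exceeded 27.7, and stood 1.32 log2 units higher in SUM149PT (adjusted p = 0.11) and 1.02 lower in Hs578T than in BT549 (Log2 FC −1.02, adjusted p = 0.26). For CD2AP the Log2 FC was 0.98 for SUM149PT over BT549 and 0.99 over Hs578T (adjusted p = 0.21 and 0.19), while CRKL differed by at most 0.49 between lines and RAB11FIP3 by at most 0.76 in size (Log2 FC −0.76 for SUM149PT over Hs578T). That RAB11FIP3 value was −0.19 without SUM149PT siCtrl replicate 2, and the one for SUM149PT over BT549 went from −0.14 to 0.43, with no call in either fit.

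At an adjusted p under 0.05, 1 of 8 member rows was called between Hs578T and BT549 beside 13.9% of all rows, 0 of 8 between SUM149PT and BT549 beside 18.2%, and 0 of 8 between SUM149PT and Hs578T beside 20.2%. With an unadjusted p under 0.05 the counts were 3, 1 and 3 of 8, beside 25.9%, 30.1% and 33.0% of all rows. Groups were apart for 4, 2 and 4 of 8 rows, against 36.7%, 32.8% and 35.4% of all rows. Without SUM149PT siCtrl replicate 2 the share of all rows rose to 22.4%, 34.2% and 31.7%, and the member calls became 2, 3 and 1 of 8: both SH3KBP1 rows between Hs578T and BT549 (adjusted p = 0.00029 and 0.0043), both SH3KBP1 rows and CTTN between SUM149PT and BT549 (Log2 FC 1.57, 1.59 and 1.22, adjusted p = 0.0020, 0.0069 and 0.047) and CTTN between SUM149PT and Hs578T (Log2 FC 1.46, adjusted p = 0.026, all by limma).

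**Figure D3:**
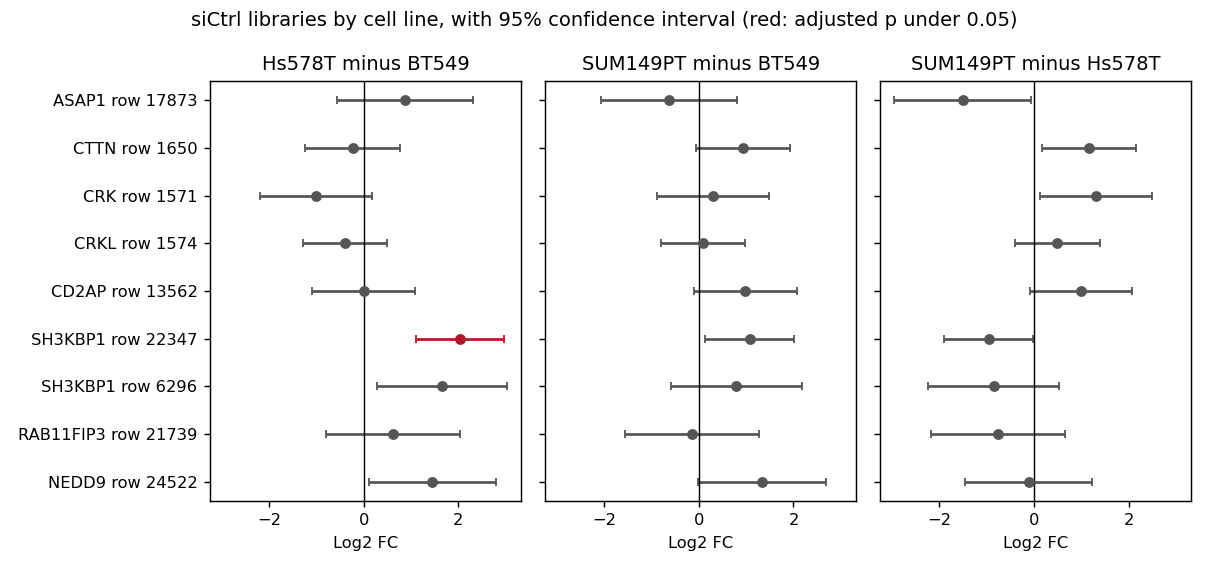
Log2 FC between cell lines in the 9 siCtrl libraries (horizontal axis, log2 units) with 95% confidence intervals, for ASAP1 and 8 member rows. SH3KBP1_22347 in Hs578T over BT549 (2.03, in red) is the single member row with an adjusted p under 0.05.

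Within groups, several members varied together with ASAP1 from replicate to replicate. After subtracting each group's mean, the log2 deviations of ASAP1 over 18 libraries had a Pearson r of 0.89 with those of SH3KBP1_6296, 0.84 with SH3KBP1_22347, 0.73 with CTTN and 0.72 with RAB11FIP3. CRK (0.04), CRKL (−0.04), CD2AP (−0.065) and NEDD9_24522 (0.13) showed no such relation over the 18 libraries. High values were common in the table, where 2.69% of 10474 other rows reached the r of SH3KBP1_6296, 6.01% that of SH3KBP1_22347, 12.8% that of CTTN and 13.4% that of RAB11FIP3. Without SUM149PT siCtrl replicate 2 the r was 0.72, 0.45, 0.73 and 0.40 in the same order, so the values for SH3KBP1_22347 and RAB11FIP3 rested largely on that library. The share of other rows reaching these values was then 8.62%, 25.8%, 7.74% and 28.7%. Without that library CRK, CRKL, CD2AP and NEDD9_24522 had an r of 0.0047, 0.04, −0.38 and 0.06, so the CD2AP value was negative and larger in size. The points share a library, its depth and its size factor, and the correlations are a description.

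**Figure D4:**
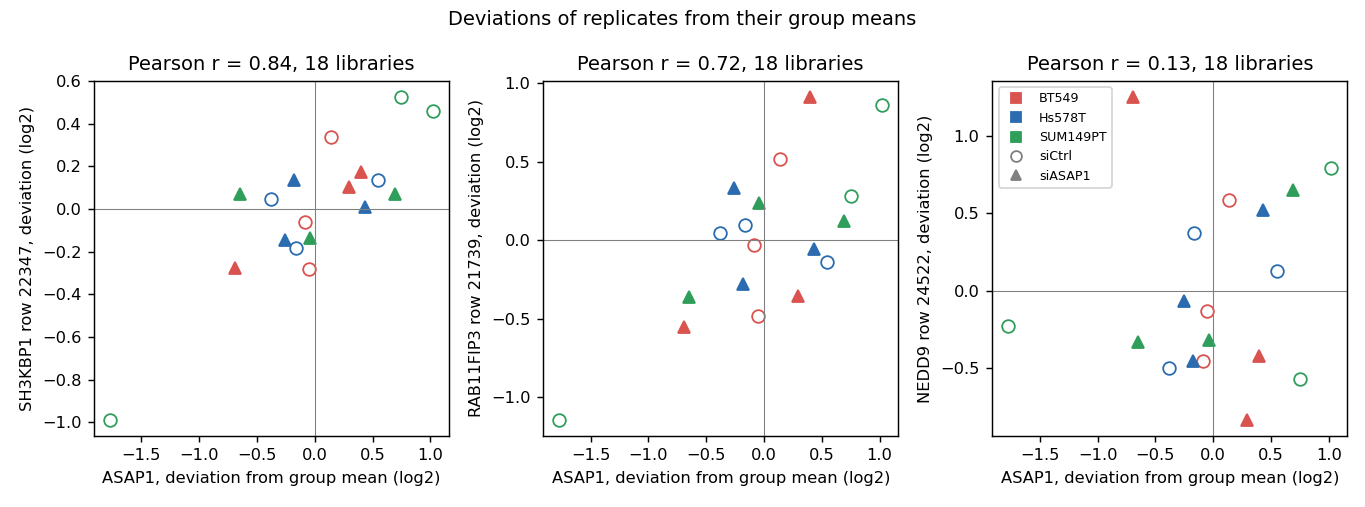
Deviations of 18 libraries from their group means, on the log2 scale, for ASAP1 (horizontal axis) against SH3KBP1_22347, RAB11FIP3 and NEDD9_24522 (vertical axes). Color gives the line, open circles siCtrl and triangles siASAP1, and the SUM149PT siCtrl library at the lower left of the first 2 panels carries much of their r of 0.84 and 0.72.

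Around the members, 3 lists of pathway genes were counted in the same fits. The focal adhesion list held 48 genes of integrin signalling, its core and its adaptors. In BT549 2 of its 34 tested rows passed the study's limits (5.88%, beside 6.97% of all rows) and both were higher after silencing: ELMO2, a partner of DOCK proteins in RAC1 activation, at 29.3 to 108.6 against 13.7 to 15.4 (Log2 FC 2.04), and the actin crosslinker ACTN4 at 1426 to 3960 against 710.0 to 1539 (1.12). In Hs578T 0 of 36 passed, and in SUM149PT 1 of 36, beside 2.78% and 9.56% of all rows. The SUM149PT row was the adaptor GRB2, at 152.6 to 731.6 against 34.3 to 312.5 (2.29). Its Log2 FC ran from 1.68 to 3.25 in the fits that leave out 1 library, the highest without the low-ASAP1 siCtrl replicate 2. Over the 3 lines 0 of 36 passed at an adjusted p under 0.05, with 5 (13.9%) at an unadjusted p under 0.05, beside 15.8% of all rows. The list's median Log2 FC was 0.28, 0.22 and 0.25 in BT549, Hs578T and SUM149PT, beside medians of −0.0015, 0.01 and 0.09 over all rows tested. ELMO2 passed in each of the 6 fits that leave out 1 library, ACTN4 in 3 and GRB2 in 2, and without the low-ASAP1 SUM149PT library the list's count in that line was 8 of 34 (23.5%) in place of 1, beside 23.4% of all rows in that fit. In BT549 the count was 6 of 32 (18.8%) without siASAP1 replicate 1, beside 22.5% of all rows, and 1 of 33 without siASAP1 replicate 2 or replicate 3, beside 4.26% and 3.44%. In Hs578T it was 1 without siASAP1 replicate 1, siCtrl replicate 1 or siCtrl replicate 3, beside 1.66%, 2.66% and 6.67%.

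Of the endocytic and RAB11 adaptors, 1 of the 23 rows tested passed in BT549, 1 among 24 passed in Hs578T and 0 among 23 in SUM149PT, beside 6.97%, 2.78% and 9.56% of all rows. The count was 5 of 24 in BT549 without siASAP1 replicate 1, beside 22.5% of all rows in that fit, and 0 of 24 without siCtrl replicate 1, beside 5.37%. In SUM149PT it was 5 of 23 without siCtrl replicate 2, beside 23.4%. In Hs578T it was 2 of 24 without siASAP1 replicate 3, siCtrl replicate 2 or siCtrl replicate 3, beside 1.82%, 3.31% and 6.67%. In BT549 the called row was RAB11A, the recycling GTPase that RAB11FIP3 binds, at 138.7 to 375.1 after silencing and 481.9 to 842.3 in siCtrl (Log2 FC −1.26, adjusted p = 0.60 by limma). The RAB11A groups were apart, in the direction opposite to RAB11FIP3, but without BT549 siASAP1 replicate 3 or siCtrl replicate 1 the row missed the limits (Log2 FC −0.85 and −0.99). In Hs578T the row was SNX9, a sorting nexin of clathrin-coated pits, at 71.7 to 102.0 against 28.7 to 46.3 (1.34, adjusted p = 0.91 by limma), which passed in all 6 fits without 1 library. SNX9 went the other way in BT549, at 40.6 to 80.9 after siASAP1 and 89.8 to 113.6 in siCtrl, without overlap and without a call. Its SUM149PT groups overlapped, at 23.7 to 94.9 after siASAP1 and 7.99 to 37.2 in siCtrl. Of the invadopodia and cortical actin list, 1 of 23 rows passed in BT549: MMP14, the membrane-bound matrix metalloproteinase of invadopodia, at 8384 to 27181 against 4204 to 5351 (1.71, adjusted p = 0.35 by limma), again in all 6 fits. Mesenchymal markers also moved in BT549, where 6 of the 10 marker rows had a higher mean after siASAP1, 3 a lower one and ZEB1 was at 0. Their sum was 82319 after siASAP1 and 46346 in siCtrl, mostly VIM_18185 (61919 and 32100), with CDH2 at 600.5 and 325.3, while TWIST1_7416 (755.2 and 817.2) and ZEB2 (657.6 and 755.1) were lower. The epithelial sum was 197.5 and 190.6. The part of these markers in the BT549 values of MMP14 and of the other genes was not tested. In Hs578T 0 of 23 invadopodia rows passed, or 1 without siCtrl replicate 2, beside 3.31% of all rows. In SUM149PT 2 of 24 passed, the kinase ABL2 upward (1.36) and the CDC42 exchange factor FGD1 downward (0 to 12.8 against 17.2 to 54.3), of which ABL2 kept the call in 2 and FGD1 in 1 of 6 such fits. The invadopodia count was 3 of 23 in BT549 without siASAP1 replicate 1, beside 22.5% of all rows. In SUM149PT it was 5 of 24 without siCtrl replicate 2, beside 23.4%, and 0 without siASAP1 replicate 1, siCtrl replicate 1 or siCtrl replicate 3, beside 5.17%, 4.95% and 5.87%. With a replicate block 0 of 24 invadopodia and 0 of 36 focal adhesion rows passed in SUM149PT, beside 3.48% of all rows. ABL2, FGD1 and GRB2 thus lost their calls there. In Hs578T the block gave 2 of 24 endocytic rows, beside 4.58%.

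Between the lines some rows of these lists differed more than any member row. They were named for the smallest p among more rows than the members had. In siCtrl libraries FYN, a SRC family kinase, stood at 184.2 to 390.0 in Hs578T, 2.81 to 10.1 in BT549 and 5.72 to 12.8 in SUM149PT (Log2 FC 5.21 over BT549, adjusted p = 0.00038, and −4.81 for SUM149PT over Hs578T, adjusted p = 0.00041, both by limma). TNS4, a tensin of epithelial cells, read 218.8 to 1354 in SUM149PT and no more than 0.63 in the other lines. VCL (vinculin) was lower in SUM149PT, at 910.1 to 1841, than in BT549 (4179 to 5982) and Hs578T (5024 to 6368). All 3 genes passed in each of the 9 fits that leave out 1 siCtrl library. Calls in the focal adhesion list numbered 2 of 36 between Hs578T and BT549, both higher in Hs578T, 5 of 36 between SUM149PT and BT549, 3 higher and 2 lower in SUM149PT, and again 5 of 36 between SUM149PT and Hs578T, 1 higher and 4 lower, beside 13.9%, 18.2% and 20.2% of all rows. Without SUM149PT siCtrl replicate 2 these counts were 9, 15 and 10 of 36, beside 22.4%, 34.2% and 31.7% of all rows in that fit. In the other fits without 1 library they ran from 2 to 3, 3 to 5 and 3 to 7, while all rows ran from 8.81% to 13.6%, 12.8% to 18.4% and 13.3% to 20.5%. With a replicate block they were 4, 5 and 6 of 36, beside 15.4%, 19.7% and 22.4% of all rows. In siASAP1 libraries they were 9, 9 and 8 of 36, beside 19.9%, 22.3% and 28.4%. PARVA (parvin) was higher in Hs578T (2.89) and SUM149PT (2.33) than in BT549, and in SUM149PT the kindlin FERMT1 was higher (2.41) and the CAS scaffold BCAR1, a relative of NEDD9, lower (−1.84) than in BT549. The adaptor LIMS1 was lower in SUM149PT, at 0 to 24.6, than in Hs578T, at 44.3 to 208.1. Of these 5 calls, PARVA in Hs578T held in all 9 fits without 1 library, FERMT1 in 8, LIMS1 in 7, BCAR1 in 6 and PARVA in SUM149PT in 5. Over those fits the Log2 FC of BCAR1 ran from −2.24 to −1.25 and that of PARVA in SUM149PT from 1.8669 to 3.0005. The FERMT1 value ran from 2.18 to 2.76 and that of PARVA in Hs578T from 2.63 to 3.06.

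Among the endocytic adaptors, AMPH (amphiphysin) was read in Hs578T, at 52.2 to 186.2, and was at 0 in all SUM149PT libraries, whereas SH3GL2 (endophilin A) was read in SUM149PT, at 18.6 to 80.2, and listed at 0 in both other lines. Calls there were 1, 2 and 2 of 24, beside 13.9%, 18.2% and 20.2% of all rows, among them SNX9, lower in SUM149PT than in BT549 (−2.39, held in 5 of 9 fits without 1 library). They became 2, 4 and 2 of 23 without SUM149PT siCtrl replicate 2, beside 22.4%, 34.2% and 31.7% of all rows. The last was 4 without Hs578T siCtrl replicate 3, beside 20.2%, and the second was 1 without any 1 of the BT549 siCtrl libraries or SUM149PT siCtrl replicate 3, beside 12.8% to 15.7%. With a replicate block the endocytic counts were 2, 2 and 2 of 24, beside 15.4%, 19.7% and 22.4%. In siASAP1 libraries they were 4, 1 and 2 of 23, beside 19.9%, 22.3% and 28.4%. In siCtrl libraries the invadopodia list had the largest share between Hs578T and BT549, 6 of 23 rows (26.1%, beside 13.9% of all rows), with 4 higher and 2 lower in Hs578T. WIPF1, which stabilizes the WASP proteins, stood at 252.1 to 550.7 against 4.21 to 9.98 (Log2 FC 5.47, adjusted p = 0.00018 by limma), and FSCN1, which encodes the actin bundler fascin, was also higher (2.96). PLEC (plectin) was higher (1.52), and ABL2 (−2.53) and the WAVE subunit WASF1 (−2.19) were lower in Hs578T. Of the 9 fits without 1 library, WIPF1 and FSCN1 held in all 9, PLEC in 7, ABL2 in 5 and WASF1 in 2. The count of 6 fell to 2 in some of these fits, namely without BT549 siCtrl replicate 2 or replicate 3, beside 9.09% and 8.81% of all rows. It fell to 3 without Hs578T siCtrl replicate 1 or replicate 2, beside 9.17% and 9.06%. Between SUM149PT and BT549 the calls were 3 of 23, beside 18.2% of all rows, and between SUM149PT and Hs578T 4 of 23, beside 20.2%. All 4 of the latter were lower in SUM149PT, with MMP14 at 338.9 to 1138 in SUM149PT siCtrl and 4303 to 11226 in Hs578T (−3.05). Without SUM149PT siCtrl replicate 2 the invadopodia list had 7 calls of 24 (29.2%) in each of the 3 comparisons, beside 22.4%, 34.2% and 31.7% of all rows. In the other fits without 1 library the counts for the SUM149PT pairs ran from 2 to 4 and from 3 to 5, beside 12.8% to 18.4% and 13.3% to 20.5% of all rows. With a replicate block the invadopodia counts were 6, 5 and 4 of 23, beside 15.4%, 19.7% and 22.4% of all rows. In siASAP1 libraries they were 10, 2 and 5 of 23, beside 19.9%, 22.3% and 28.4%. Of the ASAP family, ASAP1 alone had a row above the filter in each comparison, and no row of the family was called with all libraries in the fit.

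**Figure D5:**
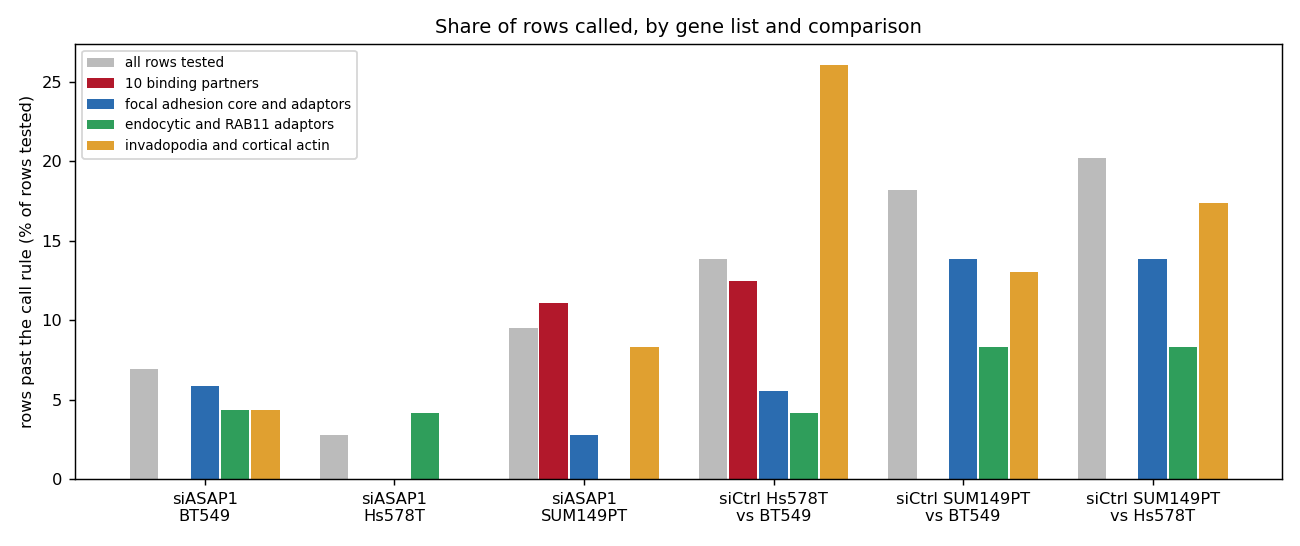
Share of tested rows past the call rule (vertical axis, %) in 6 comparisons, for all rows, the member rows (8 or 9 tested) and 3 pathway lists. The call rule is the study's limits for silencing and an adjusted p under 0.05 between lines. Member bars stand for 0 or 1 row, and the invadopodia list reaches 26.1% between Hs578T and BT549.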

How the data were processed

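TempO-Seq libraries of the 18 samples were, per the labels, demultiplexed with bcl2fastq, aligned with Bowtie and normalized with DESeq2, whose versions and genome build are not given in the sources used here. The deposited table holds log2(normalized count + 1), so the authors' values are on a log2 scale with a pseudocount of 1. Each library's values were whole multiples of 1 read's worth (100% of values above 0, tolerance 0.01), and reads were recovered on that basis. All 18 columns matched a sample title. No replicate pair agreed within sampling noise.

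Rows whose normalized count averaged 10 or more over the compared libraries were tested with limma 3.58.1 in R 4.3.3 (moderated test with a mean-variance trend, Benjamini-Hochberg adjustment over all rows), each line in a fit of its own, the 3 lines together with line as covariate, and the siCtrl libraries in 1 fit. The script was tested on simulated data. Limits within a line were those of the study, p under 0.05 and absolute log2 fold change above 1; other comparisons used an adjusted p under 0.05. P-values set a difference against the spread among these libraries. They do not cover the spread among tumors or among other lines of a type. Python 3.11.15 with pandas 2.3.3, scipy 1.17.1 and matplotlib 3.10.9 gave summaries and plots.

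The members and gene lists were chosen with earlier results of these data known. Named were ASAP1 and every member row, up to 3 rows per list, comparison and direction with the smallest p among those called, and for a member called between lines the 2 rows of other genes with the highest Pearson r. Of the list genes, TNS4, AMPH, SH3GL2, LIMS1 and FGD1 get no fold, since a compared group held a library at 0. Alternatives were TMM scaling, library totals, no filter, a minimum of 50, a pseudocount of 0.1, voom weights, summed rows of a symbol, all 18 libraries in 1 fit, a replicate block, adjusted calls, each library left out and, added later, siASAP1 in place of siCtrl libraries between lines.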

Additional observations from a re-analysis of the deposited data

Results flagged for a closer look

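4 values came from member rows that lay below the filter on level and had more reads after siASAP1 than in siCtrl. SRC_6741 had 11 reads over 3 BT549 siASAP1 libraries and 6 over 3 siCtrl libraries (0.546 and 0.25 per M reads), and 14 reads in Hs578T siASAP1 with 0 in siCtrl (0.572 per M and 0). NEDD9_27576 had 14 reads in BT549 siASAP1 and 7 in siCtrl (0.695 and 0.292 per M), and 12 in Hs578T siASAP1 and 4 in siCtrl (0.49 and 0.159 per M). In SUM149PT SRC went the other way, with 3 reads after siASAP1 and 7 in siCtrl. These reads fell in few libraries. With no filter on level, limma gave a Log2 FC of 0.85 for SRC in BT549 (adjusted p = 0.80) and an adjusted p = 0.91 in Hs578T, where siCtrl was at 0 and no fold is given, and for NEDD9, row NEDD9_27576, 0.16 (adjusted p = 0.97) and 0.30 (adjusted p = 0.96), none of them a call.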

How the results depend on the processing

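The count of member rows called moved as follows. In SUM149PT after silencing it was 1, but 0 with a replicate block and 0 with adjusted calls, and it ranged from 0 to 1 when 1 library was left out. In BT549 it was 0, but 1 with all 18 libraries in 1 fit (RAB11FIP3, Log2 FC 1.25, adjusted p = 0.61 by limma) and 0 to 1 without 1 library. Between lines the counts of 1, 0 and 0 (Hs578T over BT549, SUM149PT over BT549, SUM149PT over Hs578T) became 2, 2 and 1 in siASAP1 libraries and, for the SUM149PT pairs, 1 and 1 with all 18 libraries in 1 fit, and they ranged from 1 to 2, 0 to 3 and 0 to 1 without 1 library. Of all rows, 19.9%, 22.3% and 28.4% were called in siASAP1 libraries. Without 1 library the shares of all rows ran from 8.81% to 22.4%, 12.8% to 34.2% and 13.3% to 31.7%. The other 142 values of the member counts did not move, and no value reversed its direction after a call. Replicate numbers were not taken to pair the samples, since the rule was a correlation over 0.1 in every pair and only Hs578T came near it: same-numbered siASAP1 and siCtrl deviations correlated at −0.19, −0.39 and 0.14 in BT549, 0.0998, 0.42 and 0.41 in Hs578T and −0.33, −0.66 and −0.35 in SUM149PT. Of 6 libraries a line, 2 in BT549, 5 in Hs578T and 0 in SUM149PT correlated best with the library of their own number. Under the replicate block NEDD9_24522 in SUM149PT had the same Log2 FC with an SE of 0.78 in place of 0.60 and an adjusted p = 0.98 by limma. In Hs578T the block gave ASAP1 the same Log2 FC of −0.98 with an SE of 0.19 in place of 0.32 and an adjusted p = 0.048 in place of 0.91 (limma), and 37 rows of the table, none of them a member, had an adjusted p under 0.05 in place of 0. With the block the calls over all rows by the study's limits were 591, 435 and 351 in BT549, Hs578T and SUM149PT. Over all rows the calls of 674, 264 and 963 in BT549, Hs578T and SUM149PT ranged from 325 to 2169, 158 to 634 and 501 to 2325 without 1 library. With the other alternatives they ran from 0 (adjusted calls) to 921, 435 and 1551, the 182 over the 3 lines from 34 to 246, the 1 of the interaction from 0 to 22, and the 1421, 1866 and 2076 between lines from 967 to 2091, 1275 to 2343 and 1387 to 2992. Without 1 library the count over the 3 lines ran from 99 (without BT549 siCtrl replicate 1) to 206, that of the interaction from 1 to 26 (without SUM149PT siCtrl replicate 2), and those between lines from 906 to 2264, 1313 to 3453 and 1362 to 3200. The causes of these shifts were not tested. Rows with under about 10 reads a library, among them SRC and NEDD9_27576, are limited by their few reads, and the cause of the low counts was not tested.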
